A study of Mus musculus with 20 samples.

Results

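The data described here are the gene expression levels of 5 wild-type (WT) mouse forebrains taken at embryonic day 15 from pregnancies on plain chow, the baseline group of a study of the Ts1Cje mouse. They were chosen by their labels alone, as the arrays whose genotype field reads WT and whose treatment field reads Powder, and they are 5 of the 20 arrays of the series. In that study Ts1Cje males, in which a distal segment of chromosome 16 is present in an additional copy, were mated to C57Bl/6J females, so the WT embryos were offspring of a Ts1Cje father with 2 copies of that segment. The parents ate purified powdered chow from mating on, with no apigenin, the plant flavone that other groups received. Each array held RNA of 1 embryo on the Affymetrix Mouse Gene ST 1.0 platform, and RNA was used where its integrity number exceeded 9. The sample field gives embryonic day 15, while the protocol gives a time later on that day and says that the hemispheres were dissected. All 5 titles carry the strain name Ts1Cje, and the litters of the embryos are not given in the labels. Embryos are called replicates 1 to 5 here, and because some may share a dam, the spread between them is the spread between these 5 samples only.

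At this age the mouse forebrain is in the middle of making its neurons. Radial glia lining the ventricle divide and give rise, directly or through intermediate progenitors, to excitatory cortical neurons that settle in layers, deep layers first. Inhibitory interneurons arise in the ganglionic eminences below the cortex and migrate into it, while axons grow toward their targets and the first synapses form. Oligodendrocytes and most astrocytes appear later, and blood vessels, microglia and meninges are already present.

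Levels are the deposited log2 values, on which a step of 1 is a 2-fold change, and each level is given as mean ± SD over the 5 embryos (n = 5). A level is the signal of that gene's own probes, whose affinity differs from gene to gene, so ranks among the 20239 genes order signals and not amounts of RNA. Background was taken from 1329 chemoreceptor genes, the odorant, pheromone and bitter taste receptors, which brain tissue uses little. Their means had a median of 4.75 and a 95th percentile of 6.66, and a gene is called above background when its mean exceeds that percentile. By this rule 67 of the chemoreceptor genes themselves count as above background, so a level slightly above it need not stand for expression. The labels were checked first. Dnah11, a dynein gene whose reading separates the genotypes of this series, lay at 6.78 to 7.25 in the 5 arrays described here and at 10.53 to 10.66 in the Ts1Cje plain-chow arrays. The mean of 67 genes of the segment that is triplicated in Ts1Cje lay at 8.53 to 8.55 in these 5 arrays and at 8.81 to 8.82 in the Ts1Cje plain-chow arrays. The 5 arrays thus read as WT in each embryo. Eif2s3y, a Y-linked translation factor gene, read 9.51, 4.59, 9.74, 9.58 and 4.32 in replicates 1 to 5, and Xist, the RNA that coats the inactive X chromosome, read 5.89, 12.43, 5.48, 5.38 and 12.23. Replicates 1, 3 and 4 therefore had Y-linked signal and replicates 2 and 5 had Xist, the 3 males and 2 females that the design text gives for every group.

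The arrays were close to each other and not identical. Across all genes any pair correlated at 0.991 to 0.996, with the lowest value between replicates 1 and 2. The first principal component of the genes above background held 47.4% of the variance between the arrays and set replicate 1 at -14.5 and replicate 2 at 15.1, with the other three between -0.49 and 0.12. Without Y-linked genes and Xist, the second component (23.0%) set replicates 1, 2 and 3 at -5.36 to -4.05 and replicates 4 and 5 at 7.29 to 7.45. With these genes kept, the second component (22.7%) did not split the arrays in this way. It set replicate 3 at -9.01, replicate 5 at 11.2 and replicates 1, 2 and 4 between -0.81 and -0.65. The titles give the embryos of replicates 1 to 3 numbers in one run and those of replicates 4 and 5 numbers in another, and what the runs stand for is not stated. Replicates 1 and 3 also read higher in dim genes: the chemoreceptor mean was 4.92, 4.78, 4.90, 4.77 and 4.79 in replicates 1 to 5. Each of the 5 arrays would hold the lowest reading of 20% of genes if none stood apart. Of the genes above background, 25.9% were lowest in replicate 1 and 25.2% in replicate 2, against 12.0% in replicate 4, and these shares are the yardstick for the counts by array given below.

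Mean levels ran from 2.77 to 13.82 with a median of 7.86. Of the 20239 genes, 14312 (70.7%) lay above background, and 2519 (12.4%) had a mean above 10. The share of 70.7% is the yardstick for the counts of list members above background given below. The middle of the range was wide: the 10th percentile was 5.12 and the 90th was 10.20.

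**Figure D1:**
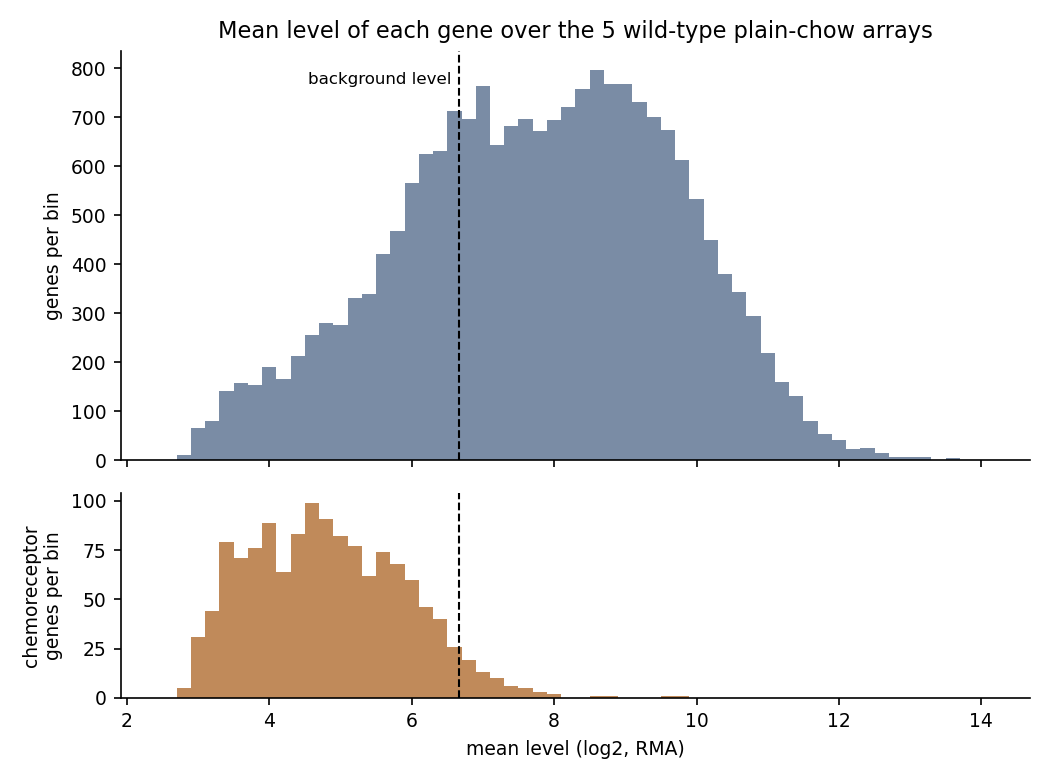
Number of genes in bins of mean log2 level over the 5 arrays (top, all 20239 genes; bottom, the 1329 chemoreceptor genes), with the background level of 6.66 as a dashed line. The chemoreceptor genes pile up around 4.75, and 14312 genes lie to the right of the line.

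The strongest signals belonged to the general machinery of the cell and to the neuronal cytoskeleton. The highest mean was that of Hspa8, a constitutive chaperone of protein folding, at 13.82 ± 0.031, with 13.79, 13.78, 13.86, 13.82 and 13.83 in replicates 1 to 5. Actb (cytoplasmic actin) stood at 13.64 ± 0.039, Eef1a1 (which brings amino acids to the ribosome) at 13.56 ± 0.033, Rpl13a (a protein of the large ribosomal subunit) at 13.06 ± 0.024, Arl1 (a small GTPase of the Golgi) at 13.34 ± 0.088, Atpif1 (an inhibitor of the mitochondrial ATP synthase) at 13.15 ± 0.042 and Tmsb4x (an actin-binding peptide) at 13.05 ± 0.11. Short structured RNAs that encode no protein were also among the 15 highest, and a whole-transcript labelling kit such as the one named in the labels reads RNA without a poly(A) tail. They were Rny3, a Y RNA, at 13.63 ± 0.095, Rn7sk, a brake on transcription elongation, at 13.61 ± 0.12, and Rmrp, the RNA part of RNase MRP, at 13.19 ± 0.043. The remaining members of the 15 are known from neurons and their progenitors. Map1b, which binds microtubules in growing axons, read 13.25, 13.19, 13.25, 13.26 and 13.28 in replicates 1 to 5, Stmn2, a regulator of microtubules in growth cones, stood at 13.22 ± 0.037, Tuba1a, the main alpha-tubulin of young neurons, at 13.18 ± 0.096, and Nnat, an imprinted gene of the developing brain, at 13.20 ± 0.027. Fabp7, the brain lipid-binding protein of radial glia, completed the group at 13.13 ± 0.065. Of the 15, Rn7sk and Tmsb4x had the widest spread, and for both the lowest reading was in replicate 1. Of the 100 highest genes 88 were protein-coding.

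Forebrain factors were measured in every embryo. Of 23 regional transcription factors listed for it, 21 are named in the table, and all 21 lay above background in the mean with a median of 9.10. Lhx2, which gives cortex its identity, read 10.67, 10.59, 10.57, 10.69 and 10.75 in replicates 1 to 5. Emx1, a factor of the dorsal telencephalon, read 8.59, 8.40, 8.54, 8.44 and 8.44, and Emx2, which patterns the cortex, stood at 8.27 ± 0.096. Meis2, strong in the striatum and its progenitors, stood at 12.03 ± 0.032, Bcl11a, a factor of cortical projection neurons, at 11.83 ± 0.082, Nr2f1, which sets cortical areas, at 10.44 ± 0.12, Pax6, of dorsal progenitors, at 9.10 ± 0.08, and Six3, of the anterior forebrain, at 8.53 ± 0.10. The 5 readings of Lhx2 lay within 0.18 of each other on the log2 scale, and Bcl11b, a factor shared by deep-layer and striatal neurons, stood at 10.50 ± 0.039.

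Genes of regions behind the forebrain mostly lay below the median of all genes. Of 37 Hox genes, which mark the hindbrain and spinal cord, 9 lay above background, none had a mean above the median of all genes, and the highest were Hoxb3 at 7.72 ± 0.066 and Hoxa4 at 7.63 ± 0.093. Hoxc4 (4.78), Hoxa5 (4.85) and Hoxc6 (5.40) were the lowest of the family. Of 15 midbrain and hindbrain markers, 10 lay above background, a share near the 70.7% of all genes, and 3 above the median of all genes. Lmx1b, a factor of dopaminergic and serotonergic neurons, read 8.36, 7.97, 8.11, 7.95 and 8.23 in replicates 1 to 5, and Gata3, a factor of midbrain inhibitory neurons, read 8.13, 7.82, 7.48, 7.62 and 7.52. Slc6a3, the dopamine transporter, read 8.26, 7.94, 7.90, 7.85 and 7.89, Th, which makes the dopamine precursor, stood at 7.65 ± 0.24, and Pax7 of the dorsal midbrain at 7.86 ± 0.13. En2 (6.46), Atoh1 (6.34), Slc6a4 (6.64) and Tph2 (5.69) were not above background. Replicate 1 read highest here. The mean of the 10 genes above background was 7.59 in replicate 1 and 7.25 to 7.35 in the others. Of the 10, 9 were highest in replicate 1, against 24.9% of all genes above background. After quantile normalization of the 5 arrays alone the mean was 7.56 in replicate 1, still the highest, and the count was 6 of 10. The chemoreceptor genes also read highest in replicate 1, at a mean of 4.92 against 4.77 to 4.90 in the others. So did all genes with means of 6.70 to 7.27, at 7.06 against 6.92 to 6.99. Some other dim lists, though not all, were highest in replicate 1 too. They include the lists of myelin-forming oligodendrocytes (7.75 against 7.59 to 7.64) and of interferon genes (7.77 against 7.57 to 7.73). The part of this shift of dim genes in the result was not tested.

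Progenitors were strongly represented. All 24 radial glia genes lay above background, with a median of 9.97 and 12 above 10. Besides Fabp7 these included Vim, an intermediate filament protein, at 12.04 ± 0.073, Ptprz1, a receptor phosphatase, at 11.30 ± 0.085, Sox2, the progenitor factor, at 10.55 ± 0.087, Slc1a3, a glutamate transporter, at 10.53 ± 0.039, and Tnc, a matrix protein, at 10.50 ± 0.047. Hopx (7.54 ± 0.16), linked to outer radial glia, was the most variable member, and Fam107a, which shares that association, was the dimmest at 6.90 ± 0.094. The 17 intermediate progenitor genes were all above background with a median of 8.97. Eomes, the factor that defines these cells, read 9.79, 10.02, 10.05, 9.94 and 10.01 in replicates 1 to 5. Neurog2, which starts the neuronal programme, stood at 9.02 ± 0.036, Insm1, which promotes delamination from the ventricular surface, at 9.53 ± 0.069, and Neurod4 at 7.24 ± 0.18 was the most variable. The mean of the list was 8.75 in replicate 1 and 8.84 to 8.86 in the other four arrays, and 13 of the 17 genes were lowest in replicate 1, against 25.9% of all genes above background. In whole tissue, fewer cells of a type and less RNA per cell cannot be told apart, here and in the lists that follow.

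Postmitotic neurons gave the highest median of the cell type lists, 11.71, with 17 of 17 members above background and 15 above 10. Tubb2b, a beta-tubulin of migrating neurons, stood at 12.98 ± 0.027, Map2, which binds microtubules in dendrites, at 12.69 ± 0.029, and Gap43, of growth cones, at 11.88 ± 0.06. Dcx, which young migrating neurons need, read 12.37, 12.37, 12.36, 12.35 and 12.37 in replicates 1 to 5 and was among the most even genes of the array. Snap25, part of the vesicle fusion machinery, was the most variable of the list, and it read 11.37, 10.80, 11.12, 11.37 and 11.40, with the lowest value in replicate 2. Deep-layer genes were bright: all 16 lay above background and above the median of all genes, with a median of 10.45. Nfib, a nuclear factor of deep layers and later of glia, stood at 12.34 ± 0.069, Fezf2, which specifies corticospinal neurons, at 11.28 ± 0.081, Tbr1, of layer VI, at 11.20 ± 0.045, Bcl11b, of subcerebral neurons, at 10.50 ± 0.039, and Foxp2 at 10.39 ± 0.03. Pcp4, a calmodulin-binding peptide of deep layers, read 11.23, 11.47, 11.22, 11.27 and 11.27, with replicate 2 above the other four. Nr4a2, a nuclear receptor of the subplate, was the most variable of the list at 9.94 ± 0.17. Upper-layer genes were also present, though these layers are still being made: all 11 named of 12 lay above background with a median of 9.79. Plxna4, a semaphorin receptor, stood at 11.21 ± 0.032, Mef2c at 11.03 ± 0.048, Rorb, of layer IV, at 10.01 ± 0.084, Cux1 at 10.00 ± 0.061 and Cux2 at 8.94 ± 0.058. Many of these genes are also used by progenitors or by neurons elsewhere, so the list does not stand for 1 cell type.

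The 10 Cajal-Retzius genes lay above background, led by Reln, the secreted protein that guides layering, at 10.97 ± 0.073, with Calb2 at 9.76 ± 0.11 and Trp73, a defining factor of these cells, at 7.51 ± 0.022. Ebf3 was the most variable of them at 9.03 ± 0.19. All 18 ganglionic eminence and interneuron genes lay above background with a median of 9.37. Dlx1, which drives interneuron development, stood at 11.30 ± 0.055, Gad2 and Gad1, which make GABA, at 10.75 ± 0.057 and 10.16 ± 0.035, Sst, the somatostatin gene, at 10.60 ± 0.12, and Nkx2-1, of the medial eminence, at 8.01 ± 0.12. Dlx5 was the most variable, with 9.69, 9.23, 9.44, 9.63 and 9.79 in replicates 1 to 5, and Sp9 read 9.14, 8.80, 8.98, 9.29 and 9.32. Both were lowest in replicate 2 and highest in replicate 5, and the mean of the list ran from 9.28 in replicate 2 to 9.46 in replicate 5. Striatal genes, 14 of 14 above background, were led by Meis2, with Bcl11b, Foxp1 at 10.38 ± 0.063 and Ebf1 at 10.27 ± 0.056. The dopamine receptor genes Drd2 and Drd1 already read 8.33 ± 0.095 and 8.18 ± 0.078, and the peptide gene Tac1, the most variable of the list, 8.14 ± 0.21. The hippocampal and hem list was led by Zbtb20, a factor of hippocampal neurons, which read 10.91, 10.73, 10.89, 10.92 and 10.93, with replicate 2 below the other four. Its Wnt genes Wnt3a (7.31 ± 0.13), Wnt2b (7.39 ± 0.065) and Wnt8b (7.16 ± 0.15), which the cortical hem secretes, were above background in the mean. Genes of the thalamus and hypothalamus were all above background in the mean, led by Tcf7l2 at 11.10 ± 0.058 and Lhx9 at 9.72 ± 0.081, while Foxb1 at 6.70 ± 0.076 and Pomc, the precursor of melanocortins, at 7.05 ± 0.18 were the dimmest.

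Cells that do not arise from the neural tube were measurable too. Endothelial genes, 16 of 16 above background with a median of 8.66, included Slc2a1, the glucose transporter of the blood-brain barrier, at 10.60 ± 0.12, Cdh5, of endothelial junctions, at 9.94 ± 0.094, and Cldn5, of tight junctions, at 9.87 ± 0.06. Pericyte genes lay above background in 9 of 10 cases, with Rgs5 at 10.37 ± 0.079 and Pdgfrb, the receptor that recruits pericytes, at 9.12 ± 0.11. All 16 genes of meninges and fibroblasts lay above background, with Fn1, fibronectin, at 10.79 ± 0.14, Dcn, decorin, at 10.51 ± 0.15 and Col1a1, of fibrillar collagen, at 9.33 ± 0.16. Their mean was 9.01, 8.97, 8.94, 9.08 and 9.12 in replicates 1 to 5, highest in replicate 5. The matrix protein gene Bgn was the most variable, at 10.19, 9.91, 9.96, 10.40 and 10.46. Microglial genes were dimmer, with a median of 7.75 and 13 of 16 above background, against 70.7% of all genes. Csf1r, the receptor microglia depend on, stood at 8.40 ± 0.12, Cx3cr1 at 7.99 ± 0.09, P2ry12 at 7.18 ± 0.079 and Tmem119, of mature microglia, at 7.15 ± 0.069, while Aif1 (6.45), Ptprc (6.32) and Itgam (6.23) were not above background. Microglial genes were highest in replicate 5 in 8 of 13 cases, against 14.3% of all genes above background.

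Of the red cell list 6 of 11 lay above background, against 70.7% of all genes. The adult beta-globin genes Hbb-bs and Hbb-b1, which are nearly identical and may share probes, stood at 12.36 ± 0.17 and 10.73 ± 0.25. Hbb-b1 read 10.45, 11.05, 10.57, 10.64 and 10.93 in replicates 1 to 5, highest in replicates 2 and 5. Alas2, of red cell haem synthesis, stood at 8.35 ± 0.13, the red cell anion exchanger Slc4a1 at 7.85 ± 0.089, and the embryonic globins Hba-x and Hbb-y at 7.91 ± 0.12 and 6.97 ± 0.22, whereas Klf1 (6.07) and Gata1 (6.43), the factors of red cell precursors, and the embryonic Hbb-bh1 (5.23) were not above background. Choroid plexus was marked by Ttr, transthyretin, which read 12.43, 12.53, 12.50, 12.61 and 12.63, and Folr1 at 8.48 ± 0.081, while Kl (6.61), another choroid plexus gene, was not above background. Ttr is also a liver gene. Of the liver list 4 of 11 lay above background, Ttr with Trf (transferrin) at 8.70 ± 0.085 and the apolipoprotein genes Apoa2 at 7.68 ± 0.13 and Apoa1 at 7.50 ± 0.16, while Alb (6.06), Afp (6.24), Fga (6.16) and Apob (6.00) were not above background. Of the lists for tissues outside the brain, 7 of 11 skeletal muscle genes, 7 of 10 epidermal genes and 4 of 11 eye genes lay above background, against 70.7% of all genes. Acta1 (8.26 ± 0.13) in muscle, Cdh1 (7.91 ± 0.051) in epidermis and Six3, which the anterior forebrain shares, in the eye list were the highest of these, and Ttn (6.31), Des (6.36), Krt5 (6.66), Krt14 (6.35), Crx (6.03) and Nrl (6.00) were not above background.

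Glial genes were present in part. Genes of oligodendrocyte precursors lay above background in 10 of 11 cases, with Pdgfra, the growth factor receptor of these cells, at 9.58 ± 0.052, Olig2 at 8.30 ± 0.11 and Olig1 at 8.26 ± 0.086, and Sox10, the most variable, at 7.60 ± 0.23. Of the genes of myelin-forming oligodendrocytes 4 of 7 lay above background, against 70.7% of all genes. Mbp, the major myelin protein, stood at 7.58 ± 0.043, Mag and Mog at 6.95 ± 0.066 and 6.93 ± 0.19, close to the background level of 6.66, while Mobp (6.52), Aspa (5.82) and Opalin (5.50) were not above it. The astrocyte list, 11 of 12 above background, was led by Sparcl1 at 11.44 ± 0.056 and Apoe at 10.81 ± 0.098, genes that radial glia and vessels share. Gfap, the intermediate filament of mature astrocytes, read 6.61, 6.65, 6.43, 6.69 and 6.78 and was not above background in the mean, and Aqp4, the water channel, stood at 7.14 ± 0.099.

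**Figure D2:**
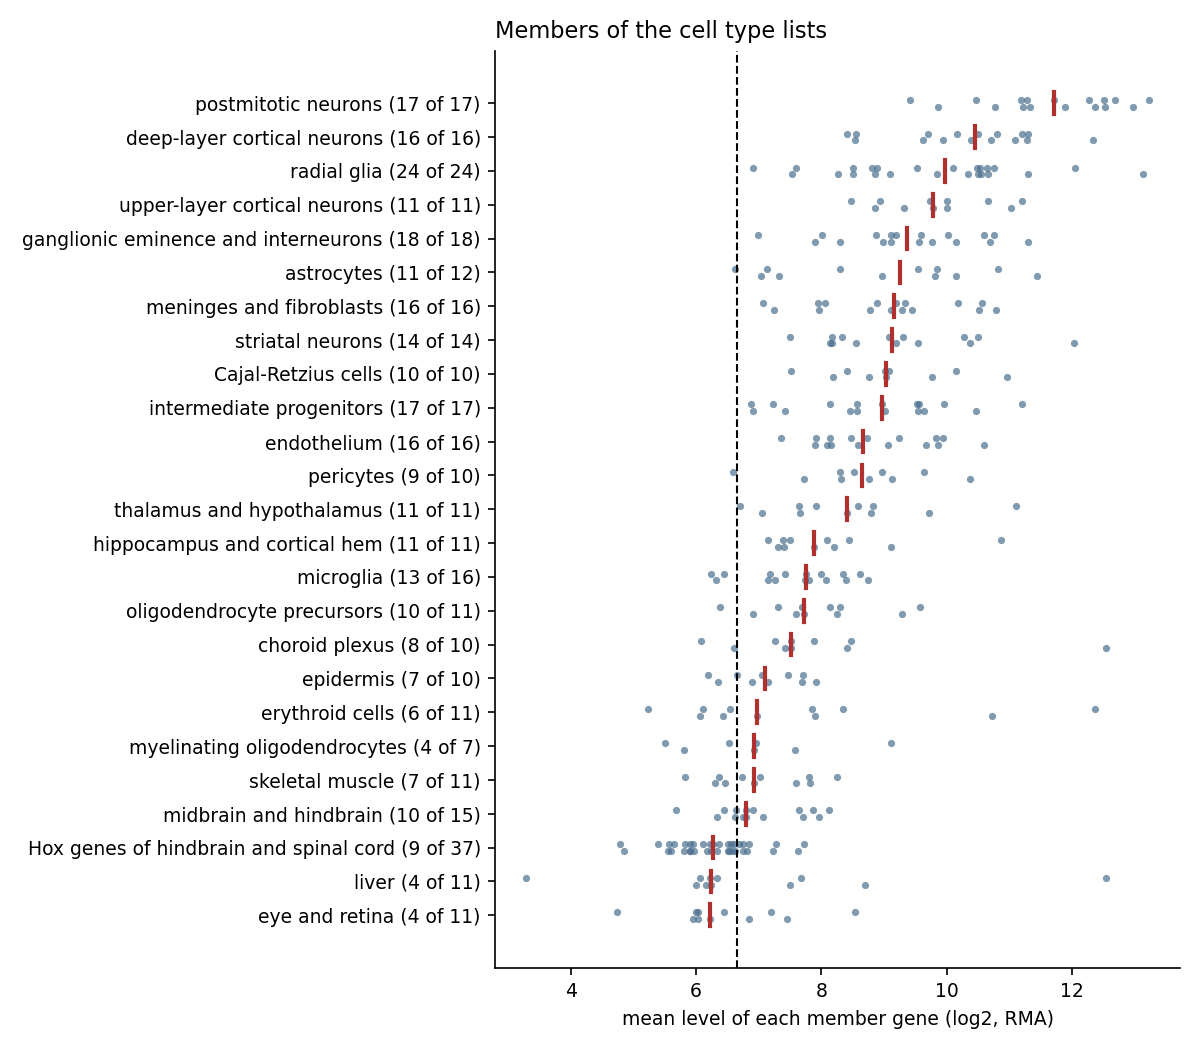
Mean log2 level of every named member of each cell type list over the 5 arrays (points), with the median of the list as a red bar and the background level of 6.66 as a dashed line; the number above background of the number named stands beside each list. Neuronal, deep-layer and radial glia genes lie far to the right of the line, and most Hox, liver and eye genes lie to its left.

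Genes of dividing cells were clearly measured, and 1 embryo lay below the rest in them. All 35 named genes of G2 phase and mitosis lay above background and above the median of all genes. Mki67, a marker of cycling cells, read 10.49, 10.69, 10.69, 10.63 and 10.69 in replicates 1 to 5, Top2a, which untangles DNA before division, 9.81, 10.04, 10.05, 10.02 and 10.05, and Ccna2, a cyclin, 9.72, 9.90, 9.95, 9.91 and 10.02. In each of these 3 genes replicate 1 was the lowest. Hmmr, a spindle protein, was the most variable at 7.51, 8.20, 8.14, 8.18 and 8.14. The mean of the list was 8.69, 8.90, 8.87, 8.86 and 8.88, and 32 of the 35 genes were lowest in replicate 1, against 25.9% of all genes above background. The count was 30 after quantile normalization of the 5 arrays alone and 32 after centring each array. The 29 genes of S phase entry and DNA replication were all above background, with Ccnd2, a cyclin of cortical progenitors, at 12.03 ± 0.068, Rrm1, of nucleotide synthesis, at 10.21 ± 0.16, and Hells, a chromatin remodeller, most variable at 8.68 ± 0.23. Their mean was 8.62, 8.76, 8.74, 8.76 and 8.75, lowest again in replicate 1, with 14 of 29 genes lowest there. Radial glia genes, some of them from the same dividing cells, had a mean of 9.72, 9.67, 9.71, 9.74 and 9.78, and 6 of 24 were lowest in replicate 1.

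Core and linker histone genes, which cells transcribe mostly in S phase and whose messages mostly lack a poly(A) tail, showed the same embryo lowest. Of 39 named, 29 lay above background, against 70.7% of all genes, and 14 above 10. Their mean was 9.61, 9.88, 9.75, 9.87 and 9.95 in replicates 1 to 5. Of the 29, 20 were lowest in replicate 1 and 16 highest in replicate 5, against 25.9% and 14.3% of all genes above background. H2bc11, a histone H2B gene, read 11.43, 11.98, 11.76, 12.01 and 12.03, H4c6, a histone H4 gene, 10.34, 10.91, 10.73, 10.91 and 11.05, and H1f4, a linker histone gene, 10.41, 10.79, 10.71, 10.82 and 10.92. The most variable above background was H3c8 at 7.34, 7.93, 7.45, 8.08 and 8.12. Histone genes are near-copies of each other, and probes of 1 may read others, so single members are uncertain.

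**Figure D3:**
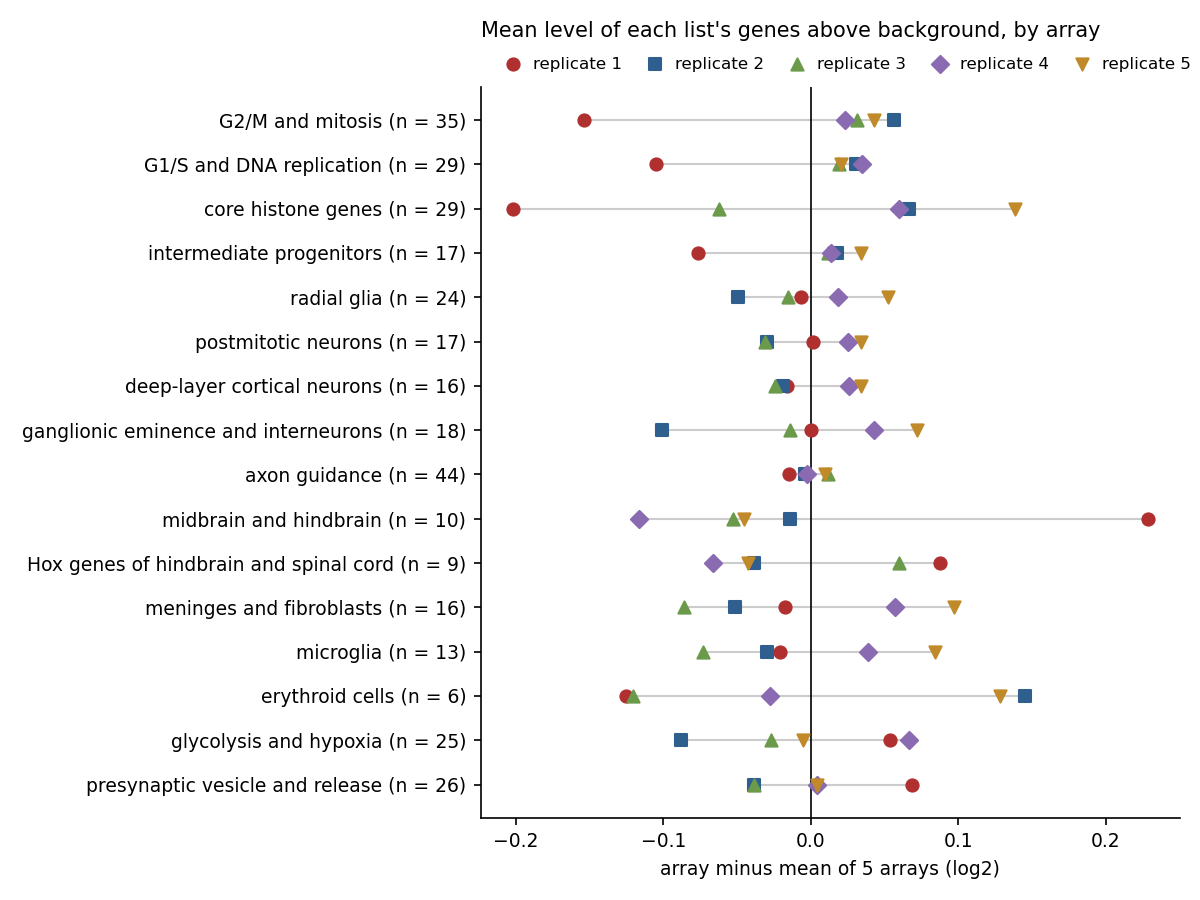
For 16 gene lists, the mean level of the members above background in each array minus the mean of the 5 arrays (log2); each marker is 1 embryo and n is the number of genes. Replicate 1 lies to the left for the cell cycle, histone and intermediate progenitor lists and to the right for the midbrain and hindbrain list, while the 44 axon guidance genes differ little between embryos.

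The start regions of several histone genes share a pair of elements that is rare among the genes of this array. The sequences printed here are the 60 bases just before the start site, 5′ to 3′ on the strand of the gene, from RefSeq's table for GRCm38.p6, with the letters TATAAA in capitals, and likewise CCAAT and, apart from these, GGGCGG. They were chosen because the linker histone genes H1f1, H1f4 and H1f5 are bright here and carry both a CCAAT and a TATAAA, H4c4 is the brightest core histone gene of the list, and Eef2 and Tubb2a are bright genes with a TATAAA outside the histone family.
H1f1: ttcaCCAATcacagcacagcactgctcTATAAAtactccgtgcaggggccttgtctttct
H1f4: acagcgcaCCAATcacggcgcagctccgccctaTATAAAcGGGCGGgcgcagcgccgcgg
H1f5: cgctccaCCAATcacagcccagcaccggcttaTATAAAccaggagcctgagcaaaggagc
H4c4: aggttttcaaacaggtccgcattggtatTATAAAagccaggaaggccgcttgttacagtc
Eef2: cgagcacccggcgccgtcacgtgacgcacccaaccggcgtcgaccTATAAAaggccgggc
Tubb2a: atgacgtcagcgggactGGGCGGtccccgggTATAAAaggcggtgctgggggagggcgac
In H1f4 (chr13:23622559-23622618, minus strand) and H1f5 (chr13:21780626-21780685, minus strand) the CCAAT begins 25 bases before the TATAAA, and in H1f1 (chr13:23763608-23763667, plus strand) 23 bases before it. H4c4 lies at chr13:23581508-23581567 (plus strand), Eef2 at chr10:81176571-81176630 (plus strand) and Tubb2a at chr13:34078009-34078068 (minus strand), as the coordinates of the printed bases. The TATAAA begins 33 bases before the start site in H1f1, 27 in H1f4, 28 in H1f5, 32 in H4c4 and 29 in Tubb2a, and 15 in Eef2, nearer to the start than the usual place of a TATA box. Of the 13035 genes with a single start region in that table, 14 hold a CCAAT followed by a TATAAA on the strand of the gene within these 60 bases, and 6 of the 14 are histone genes, H1f1, H1f3, H1f4, H1f5, H2bc3 and H3c10. The others are Ckb, the brain creatine kinase, at 12.52 ± 0.067, Jpt1 at 12.08 ± 0.041, H2-D1, Krt71, Dio3, Bpifa1, Olfr720 and Tas2r123, of which the last 4 and Krt71 lay between 4.07 and 6.76. The elements were also present in dim genes: H1f3 read 5.78 and H3c10 5.58, both not above background. Over the whole stretch of the table, either strand, 62.5% of 32 histone start regions hold a TATAAA and 87.5% a CCAAT, against 13.3% and 38.9% of all 13035. A match of letters is a description, not evidence of binding.

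Start regions differed with level across the whole array. The 13035 genes were split into 10 groups of equal size by their level in these 5 embryos. TATAAA, on either strand, was in 36.0% of the start regions of the dimmest group, 9.74% of the fifth and 7.21% of the brightest. TATAAA on the strand of the gene in the stretch from 40 to 20 bases before the start was in 4.75% of the dimmest group, 0.31% of the ninth and 1.53% of the brightest. GGGCGG went the other way, from 5.21% to 73.1%, and the median ratio of observed to expected CpG from 0.12 to 0.84, while CCAAT stayed between 35.1% and 42.6%. The median content of G and C went from 38.7% to 64.0%, and the part of base composition in these shares was not tested. Chemoreceptor genes, with a median level of 4.75, lie mostly at the dim end, and their part in the shares was not tested either. Among the lists, all 12 start regions of cholesterol synthesis genes held both CCAAT and GGGCGG, and of 27 of G2 and mitosis genes 74.1% held CCAAT. Of 14 presynaptic genes 7.14% and of 30 axon guidance genes 13.3% held it.

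**Figure D4:**
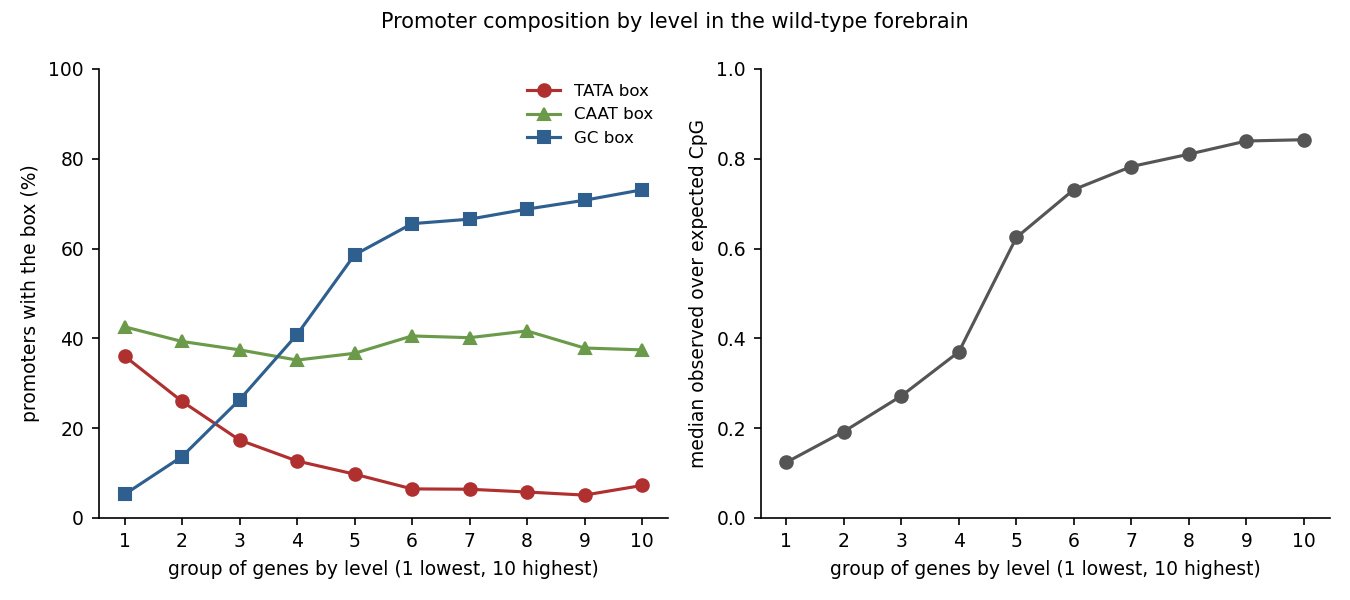
Left, share of start regions that hold the letters TATAAA (drawn as TATA box), CCAAT (CAAT box) or GGGCGG (GC box), either strand, by group of level in the 5 arrays (1 lowest, 10 highest). Right, median ratio of observed to expected CpG of the same groups. The TATA box share goes from 36.0% to 7.21%, the GC box share from 5.21% to 73.1% and the CpG ratio from 0.12 to 0.84.

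Signalling pathways that pattern the forebrain were measured across their parts. In the Notch pathway, which keeps progenitors from differentiating, 25 of 26 genes lay above background. Its receptors Notch1 and Notch2 stood at 9.84 ± 0.076 and 9.42 ± 0.078, the ligands Dll1, Jag1 and Dll3 at 8.45 ± 0.024, 8.65 ± 0.091 and 7.42 ± 0.05, and the targets Hes5 and Hes1 at 8.82 ± 0.13 and 7.60 ± 0.15. Dll1 was among the most even members and Hey2 (0.16) and Rbpj (0.16) had the widest SD of those above background. In the Wnt pathway 45 of 50 lay above background. The intracellular parts were the brightest, with Ctnnb1, beta-catenin, at 12.17 ± 0.053, Gsk3b at 11.82 ± 0.065 and Apc at 11.69 ± 0.037, the receptor Fzd3 stood at 10.93 ± 0.034, the ligand Wnt7b at 8.92 ± 0.037 and the target Axin2 at 8.92 ± 0.072. Sfrp1, a secreted Wnt antagonist, varied most, with 10.70, 10.10, 10.62, 10.81 and 10.88 in replicates 1 to 5, lowest in replicate 2. Wnt1 (5.77), Wnt2 (6.32) and Lgr5 (6.58) were among the 5 members not above background.

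In the hedgehog pathway all 14 genes lay above background. The receptor parts Ptch1, Smo and Cdon stood at 9.47 ± 0.039, 9.77 ± 0.10 and 10.29 ± 0.05, the ligand Shh at 8.04 ± 0.062, the effector Gli3, which acts dorsally, at 8.50 ± 0.097, and the target Gli1 at 7.61 ± 0.052. In the FGF pathway 22 of 26 lay above background. The receptors Fgfr1, Fgfr2 and Fgfr3 stood at 10.20 ± 0.07, 9.25 ± 0.075 and 9.02 ± 0.054, the secreted factors Fgf9, Fgf18, Fgf15 and Fgf8 at 8.62 ± 0.072, 8.48 ± 0.065, 8.31 ± 0.084 and 7.96 ± 0.15, and the feedback targets Dusp6 and Spry1 at 8.90 ± 0.07 and 8.02 ± 0.035. Fgf2 (6.55) and Fgf10 (6.55), both known in early forebrain growth, were not above background. Fgfr4, the most variable member above background, read 7.09, 6.72, 7.17, 7.06 and 7.15.

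In the values as deposited, the mean of the axon guidance genes varied less between embryos than that of any of the larger lists described here. All 44 lay above background, 21 of them above 10, and their mean was 9.95, 9.96, 9.98, 9.97 and 9.98 in replicates 1 to 5. After quantile normalization of the 5 arrays alone their mean ran from 9.94 to 9.99. That of the Ts1Cje segment genes then ran from 9.00 to 9.02, a narrower range, and it was also narrower after centring each array. The Slit receptors Robo2 and Robo1 stood at 11.75 ± 0.039 and 11.65 ± 0.021, the netrin receptor Dcc at 11.15 ± 0.066, the plexin Plxna2 at 11.39 ± 0.058, the adhesion proteins Chl1 and Cntn2 at 11.59 ± 0.035 and 11.01 ± 0.056, and the ephrin receptor Epha4 at 10.67 ± 0.042. The ligands Slit1, Slit2 and Ntn1 stood at 9.46 ± 0.079, 9.35 ± 0.044 and 8.74 ± 0.095. Robo3, which commissural axons of the hindbrain and spinal cord use, was the dimmest at 6.75 ± 0.098.

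Genes of the synapse were already present. All 26 presynaptic genes lay above background with a median of 10.03. Syt1, the calcium sensor of release, read 11.70, 11.71, 11.72, 11.72 and 11.72 in replicates 1 to 5 and was among the 10 most even genes, while Vamp2, of the vesicle membrane, stood at 10.73 ± 0.20. Of the vesicular glutamate transporters Slc17a6 stood at 10.56 ± 0.093, Slc17a7 at 8.99 ± 0.037 and Slc17a8 at 6.95 ± 0.12. Of the 26 presynaptic genes 12 were highest in replicate 1, against 24.9% of all genes above background. Their mean was 9.81 in replicate 1 and 9.70 to 9.75 in the others. Glutamate receptor genes lay above background in 22 of 23 cases, with Gria2, the subunit that limits calcium entry, at 11.76 ± 0.095, and Grin2b, the NMDA subunit of the embryo, at 11.35 ± 0.036. Grin2a, the NMDA subunit that joins after birth, stood at 7.22 ± 0.11. Of GABA-A receptor genes 11 of 15 lay above background, against 70.7% of all genes. Gabra5 stood at 10.95 ± 0.058, Gabra3 at 10.13 ± 0.065 and Gabra2 at 9.82 ± 0.11, while Gabra6, of cerebellar granule cells, was not above background (5.01). The chloride transporters that set the direction of GABA currents, Slc12a2 (NKCC1) and Slc12a5 (KCC2), stood at 9.73 ± 0.14 and 9.98 ± 0.11. Among sodium channel genes Scn3a, the alpha subunit of the embryo, stood at 10.60 ± 0.04, Scn2a at 10.00 ± 0.065, Scn8a at 9.57 ± 0.067 and Scn1a, which comes to dominate in inhibitory neurons after birth, at 8.16 ± 0.18. Scn10a (5.99), Scn11a (6.03) and Scn7a (4.43), known from peripheral nerve, were not above background.

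Tubulin and microtubule genes were among the brightest, with 22 of 22 above background, 16 above 10 and a median of 11.49. Tubb5 stood at 13.03 ± 0.067, Pafah1b1, the lissencephaly gene product that works with dynein in migration, at 11.35 ± 0.071, and Dclk1 at 11.62 ± 0.017, and Tuba8 was the dimmest at 7.50 ± 0.047. Sox genes were all above background in the mean (20 of 20). Sox11 and Sox4, of young neurons, stood at 12.04 ± 0.074 and 11.71 ± 0.059. Sry, the testis-determining gene, read 7.41, 6.95, 7.25, 7.17 and 7.09 in replicates 1 to 5 and thus did not separate the embryos with and without Y-linked signal. Its readings in replicates 2 and 5, which had no Y-linked signal, also exceeded the background level of 6.66. A mean slightly above background thus need not stand for expression of a gene, in this list and in the others. Of imprinted genes 22 of 23 lay above background with a median of 10.22. Mest read 12.10, 11.97, 12.11, 12.13 and 12.14 in replicates 1 to 5, with replicate 2 below the others, and Meg3, a maternally expressed long RNA, stood at 12.06 ± 0.067, Peg3 at 10.89 ± 0.085, Igf2 at 10.63 ± 0.14 and H19 at 10.59 ± 0.10. The fetal growth genes Hmga2 (8.37 ± 0.086), Igf2bp1 (7.86 ± 0.046), Lin28b (7.95 ± 0.26) and Lin28a (7.24 ± 0.21), the last 2 of which block let-7 processing, were above background.

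Most metabolic genes lay above the median of all genes. In oxidative phosphorylation 39 of 41 lay above background with a median of 10.20, led by Atp5b, of the ATP synthase, at 12.48 ± 0.031. The muscle forms Cox6a2 (7.72 ± 0.17) and Cox7a1 (7.07 ± 0.063) lay lower in the list, and Cox8b (6.34) and Cycs (6.25), which has close copies in the genome, were not above background. Replicate 3 was lowest in 20 of the 39 genes above background, against 16.9% of all genes. Glycolysis and hypoxia genes had 25 of 26 above background, with Ldha at 11.33 ± 0.082, Tpi1 at 11.09 ± 0.067 and Vegfa, the vessel growth factor, at 10.03 ± 0.042. Of the 25, 14 were lowest in replicate 2, against 25.2% of all genes above background. Car9, a marker of severe hypoxia, was not above background (5.84). All 17 cholesterol synthesis genes lay above background, with Fdft1 at 10.97 ± 0.047 and Sqle at 10.43 ± 0.027. The 34 named ribosomal protein genes were all above background with a median of 9.93, and 15 were lowest in replicate 3. Rps24 read 7.56, 7.41, 6.16, 7.56 and 7.36, so that replicate 3 alone lay far below the others.

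Genes of stress and activity ranged widely. Among immediate early genes, which cells switch on within minutes of a stimulus, Fos read 7.00, 6.61, 6.75, 6.58 and 6.87 in replicates 1 to 5, Egr1 stood at 7.26 ± 0.04, Arc at 7.59 ± 0.11 and Npas4, specific to neuronal activity, at 6.73 ± 0.12, all below the median of all genes (7.86), whereas Jun (9.33 ± 0.075) and Dusp1 (10.00 ± 0.079) were brighter. All 14 heat shock genes lay above background and 6 of them above 10. Apart from Hspa8, the list had Hsp90b1 and Hspa5, chaperones of the endoplasmic reticulum, at 11.71 ± 0.05 and 11.30 ± 0.069, and the inducible Hspa1a at 7.17 ± 0.13. In the interferon list 14 of 25 lay above background, against 70.7% of all genes. B2m, of class I antigen presentation, stood at 9.31 ± 0.18, Stat2 at 8.86 ± 0.096 and Irf9 at 8.05 ± 0.077, while Mx1 (4.64), Ifit1 (5.54), Ifit3 (5.65) and Rsad2 (6.32), strongly induced by interferon, were not above background. Of the 67 genes listed for the segment that is triplicated in Ts1Cje mice, 56 lay above background, against 70.7% of all genes. Whether each of them has 3 active copies in Ts1Cje was not tested. Ttc3 stood at 12.30 ± 0.042, Dyrk1a, a kinase that limits progenitor division, at 11.15 ± 0.044, Sod1, superoxide dismutase, at 11.14 ± 0.086, Dscam, an adhesion protein, at 10.42 ± 0.10, Itsn1, of endocytosis, at 10.72 ± 0.062, and Kcnj6, a potassium channel gene, at 6.99 ± 0.044.

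Classes of RNA differed in how much of each was seen. Of protein-coding genes 72.4% lay above background, of long non-coding RNAs 51.7%, of small nucleolar RNAs 46 of 48 and of miRNA loci 127 of 307 (41.4%). The probes of a miRNA locus read RNA of the precursor stretch, not the mature miRNA. Small nucleolar RNAs, which guide RNA modification, had a mean of 9.56, 9.96, 9.78, 9.67 and 9.62 in replicates 1 to 5 for those above background, highest in replicate 2.

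The miRNA loci are given with the mature sequence they encode, because several loci encode the same one. These are RefSeq sequences on GRCm38.p6, 5′ to 3′, with the seed (bases 2 to 8), which pairs with targets, in capitals.
miR-9-5p: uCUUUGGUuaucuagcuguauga
let-7c-5p: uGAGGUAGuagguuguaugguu
miR-99a-5p: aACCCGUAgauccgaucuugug
miR-181b-5p: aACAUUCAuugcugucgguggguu
miR-125b-5p: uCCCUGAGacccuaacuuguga
The miR-9-5p sequence, of a miRNA that promotes neurogenesis, is encoded by Mir9-1 (chr3:88215613-88215635, plus strand), Mir9-2 (chr13:83738821-83738843, plus strand) and Mir9-3 (chr7:79505279-79505301, plus strand). Mir9-1 read 10.05, 9.83, 9.91, 9.91 and 10.00 in replicates 1 to 5, the highest of all 307 loci, and Mir9-2 read 9.54, 9.61, 9.67, 9.47 and 9.71, while Mir9-3 at 5.86 ± 0.16 was not above background. Identical mature products thus came with loci far above and below background. The let-7c-5p stretch of Mirlet7c-1 (chr16:77599672-77599693, plus strand) and the miR-99a-5p stretch of Mir99a (chr16:77598940-77598961, plus strand) lie near each other on the same strand. Mir99a read 8.96, 9.59, 9.26, 8.78 and 8.86 and Mirlet7c-1 7.22, 8.30, 7.96, 7.64 and 7.44, so both were highest in replicate 2 and next in replicate 3. This order is not particular to the pair. Mir100 on chromosome 9 and Mir128-1 on chromosome 1 had it too, as did the mean of the small nucleolar RNAs. Other loci did not, and Mir181d was lowest in replicate 2. The let-7 seed is shared by 11 loci with means from 4.24 to 7.71, of which 8 lay above background. The seed of miR-181b-5p (Mir181b-1, chr1:137966650-137966673, plus strand) is shared by 6 loci, of which 5 lay above background, with Mir181b-1 at 9.01 ± 0.12 and Mir181a-1 at 6.41 ± 0.47 as the highest and lowest. The miR-125b-5p sequence belongs to Mir125b-1 (chr9:41581940-41581961, plus strand) at 8.19 ± 0.26 and also to Mir125b-2, which was not above background at 5.35 ± 0.18. Of the 3 loci of miR-124, the neuronal miRNA, Mir124a-2 stood at 7.42 ± 0.14 and Mir124a-1 (3.94 ± 0.36) and Mir124a-3 (2.94 ± 0.16) were not above background.

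Differences between embryos were small for most genes. The median SD of the genes above background was 0.089 on the log2 scale, and it was 0.149 for the others. In 93.8% of the genes above background the 5 readings lay within 0.5 of each other, and in 8.15% within 0.1. Of the 14952 genes above background in at least 1 array, 77 (0.515%) spanned more than 2-fold between the highest and lowest embryo, and 50 of the 77 were above background in the mean. The count was 42 without replicate 1 and 39 without replicate 2. Leaving aside Y-linked genes and Xist, 73 remained, of which 40 were protein-coding, 0.28% of that class, while pseudogenes gave 8 of 107 and small nucleolar RNAs 3 of 47. Of the 73, 26 were lowest in replicate 1 and 29 highest in replicate 2, where 25.9% and 29.0% of all genes above background had their lowest and highest reading.

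**Figure D5:**
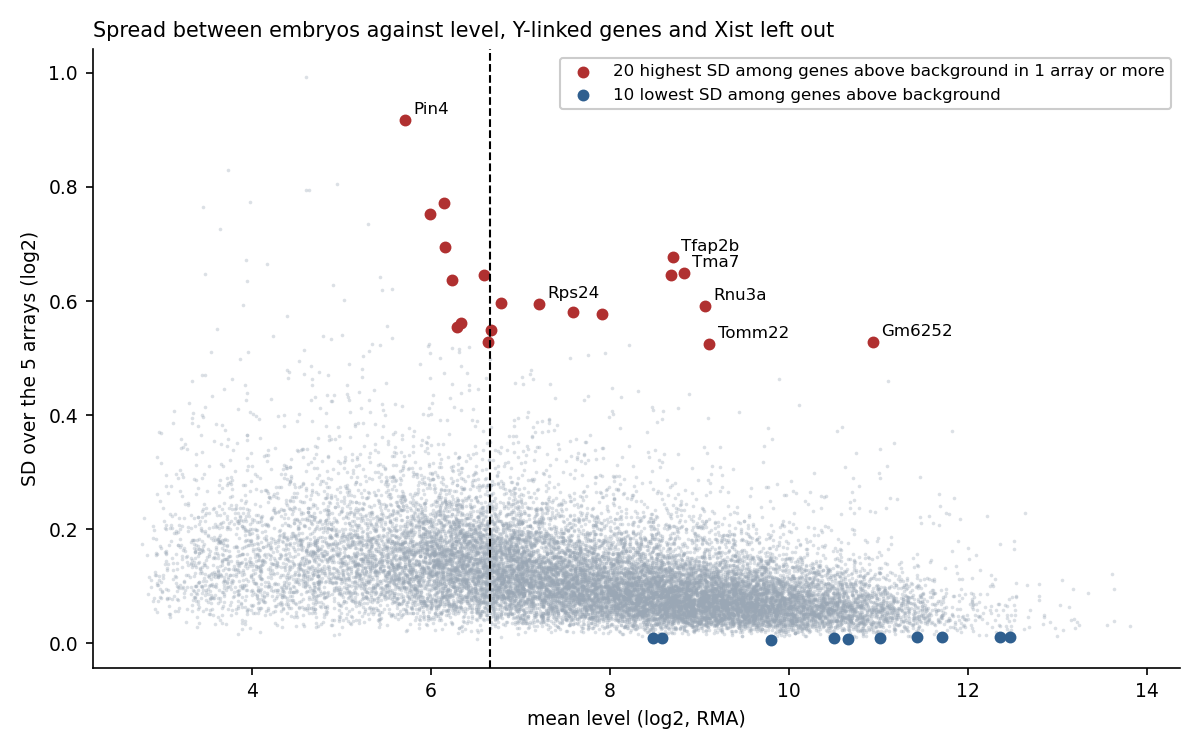
SD over the 5 arrays against mean log2 level, 1 point per gene, without Y-linked genes and Xist; the dashed line is the background level of 6.66. The 20 highest SD values among genes above background in at least 1 array (red) reach from 0.52 to 0.92, the 10 lowest (blue) lie at 0.0066 to 0.012, and the cloud narrows from left to right.

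The most variable genes were a mixed group. Of the 20, Pin4, AA792892, Gm14698, Gm13212, Gnpnat1, Sfn, Cbr2, Olfr487 and Mir186 were not above background in the mean. They entered the list only through arrays in which they read above it. Bpifb9a (6.68) and Snrpf (6.79) lay close to background. Pin4, a prolyl isomerase gene, had the highest SD, 0.92, and read 6.76, 5.62, 4.91, 6.52 and 4.73 in replicates 1 to 5, high in replicates 1 and 4. Tfap2b, a transcription factor of neural crest, midbrain and inhibitory neurons elsewhere in the brain, was the most variable gene clearly above background. It read 9.18, 9.38, 7.68, 8.84 and 8.42 in replicates 1 to 5, a span of 3.25-fold, with replicate 3 the lowest. Mab21l2 (8.90, 8.71, 8.31, 8.88 and 8.47) and Tfap2d (8.84, 8.98, 8.63, 8.88 and 8.73), chosen after their values were seen, were also lowest in replicate 3. Tma7, a translation factor gene, read 7.94, 9.14, 8.36, 9.26 and 9.44, lowest in replicate 1, and Tomm22, of the mitochondrial import channel, read 8.34, 9.45, 8.84, 9.28 and 9.65, lowest in replicate 1 as well. Rnu3a, a U3 RNA of ribosome assembly, read 8.75, 9.92, 9.45, 8.64 and 8.57, highest in replicates 2 and 3. The pseudogene Gm6252 read 10.04, 11.43, 11.04, 11.05 and 11.16, with replicate 1 alone below the rest. Sirpb1a, an immune receptor gene, read 8.82, 7.89, 7.54, 7.31 and 7.99 and Zfp931, a zinc finger gene, 6.58, 8.07, 7.79, 7.64 and 7.85. The other members of the 20 were AA792892, Gm14698, Gm13212, Gnpnat1, Gm38396, Sfn, Snrpf, Rps24, Cbr2, Olfr487, Bpifb9a and Mir186, with SD from 0.53 to 0.77. When only protein-coding genes well above background were ranked, 6 of the 20 stayed, and the list went on with Gm10033, Vmn1r175, Vmn1r90, Gm11563, Taf10, Scp2, Zfp975, Tnfsf11, Wdr83os and H3c8.

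The most even genes lay above the median of all genes. Cxxc1, which binds unmethylated CpG and recruits a histone methyltransferase, had the lowest SD above background, 0.0066, and read 9.81, 9.80, 9.80, 9.81 and 9.79 in replicates 1 to 5. Jak1, a cytokine receptor kinase, stood at 10.67 ± 0.0083, Dazap1, an RNA-binding protein gene, at 10.50 ± 0.0098, Hnrnpab, of RNA processing, at 12.47 ± 0.011, Anp32a, a nuclear chaperone, at 11.43 ± 0.011, and Agtpbp1, a tubulin-modifying enzyme whose loss kills Purkinje cells, at 11.02 ± 0.01. Zfp341 (8.58 ± 0.009) and D430042O09Rik (8.49 ± 0.009) were the dimmest of the 10, and the neuronal genes Dcx and Syt1 completed them. These 10 were picked as the lowest of 14312 SD values, so the values describe the choice and are not a test.

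The genes that set the sexes apart spanned far more than any other. Xist spanned 133-fold between embryos, Eif2s3y 42.9-fold, Uty, a histone demethylase gene of the Y, 25.1-fold and Kdm5d, another, 14.3-fold. Uty read 9.12, 4.68, 9.32, 9.15 and 4.95 in replicates 1 to 5, and Kdm5d read 8.63, 4.91, 8.74, 8.60 and 4.97. Kdm6a, the X-linked partner of Uty, read 9.35, 10.11, 9.55, 9.56 and 9.97, higher in the embryos with Xist, and Kdm5c read 9.51, 9.74, 9.50, 9.58 and 9.72. Zfx (9.47, 9.52, 9.49, 9.29 and 9.32) and Usp9x (11.41, 11.55, 11.47, 11.35 and 11.41), other X-linked genes with a Y-linked partner, did not separate the 2 embryos with Xist from the other three. Usp9y (4.18), Zfy1 (4.51) and Zfy2 (3.39) were not above background in these embryos.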

How the data were processed

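Each Affymetrix Mouse Gene ST 1.0 array measured RNA of 1 embryonic forebrain. The authors deposited 1 table of log2 expression values for 20 arrays, made with RMA per the submitters' processing notes; of its version and probe set definition nothing is given in the sources used here. The 5 arrays labelled WT and Powder were used as deposited. Of 21225 probe sets, 20239 carried 1 gene symbol in the platform annotation and 986 carried none. Mean, SD (n = 5) and rank were computed per gene with Python 3.11.15, numpy 2.4.6, pandas 2.3.3 and scipy 1.17.1, figures were drawn with matplotlib 3.10.9, and the spread and background steps were checked on simulated data. The number of arrays limits the precision. No groups were compared and no p-value was computed.

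Genes were named by rule: the 15 highest means, the 20 highest SD among genes above background in at least 1 array, the 10 lowest SD above background, and of each list its brightest members, its most variable member and its defining members not above background; other members were named for their role. The members and lists were chosen with earlier results of these data known. Each array was left out in turn, and the normalization, the background and the filter on dim genes were varied. Start regions and miRNA sequences came from RefSeq tables for GRCm38.p6, which gave 13035 genes with a single start region and a mature sequence for 282 of 307 miRNA loci.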

Additional observations from a re-analysis of the deposited data

Results flagged for a closer look

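Of 240 list and gene levels checked for an embryo that stands far from the other four, 16 were past the limit of Dixon's test, 4 lists and 12 genes. Chance flags about 1 in 20 groups that are independent and not chosen by their values. Many genes here were picked for their spread in these same arrays, and some belong to the lists checked. The count of 16 therefore cannot be read against that share. The embryo was replicate 1 in 7 cases, replicate 2 in 6, replicate 3 in 1, replicate 4 in 2 and replicate 5 in 0.

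In replicate 1 the mean of the intermediate progenitor genes was 8.75 (8.84 to 8.86 in the others), that of the S phase entry and replication genes 8.62 (8.74 to 8.76) and that of the G2 and mitosis genes 8.69 (8.86 to 8.90). Among single genes, Top2a read 9.81 in replicate 1 (10.02 to 10.05 in the others) and Hmmr 7.51 (8.14 to 8.20), both of dividing cells. The pseudogene Gm6252 read 10.04 there (11.04 to 11.43), and Slc6a3, the dopamine transporter gene, read 8.26 (7.85 to 7.94).

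In replicate 2 the mean of the Wnt pathway genes was 8.33 (8.38 to 8.39 in the others). Zbtb20 read 10.73 (10.89 to 10.93), Mest 11.97 (12.10 to 12.14) and Fgfr4 6.72 (7.06 to 7.17), each below the others, while Pcp4 at 11.47 (11.22 to 11.27) and Bpifb9a at 7.63 (6.25 to 6.62) lay above. Rps24 read 6.16 in replicate 3 (7.36 to 7.56). In replicate 4 Plxna4 read 11.15 (11.21 to 11.23) and Cdh1 7.998 (7.87 to 7.91).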

How the results depend on the processing

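The count of genes that spanned more than 2-fold, 77, ranged from 39 to 67 when 1 array was left out, with 42 without replicate 1 and 39 without replicate 2, where fewer arrays give a narrower range by construction. It was 166 with no filter on dim genes, 49 with background at the 99th percentile and 50 when the mean had to be above background, since these change which genes are counted. Of the 20 most variable genes, 10 to 18 stayed when 1 array was left out (10 without replicate 1, 13 without replicate 2), 9 when SD was divided by that of genes of like level, 7 by median absolute deviation and 6 among bright protein-coding genes; the cause was not tested. The number of genes above chemoreceptor background ran from 11471 to 15600 over its alternatives, and the median SD from 0.079 to 0.104. Of the 15 highest genes 14 or 15 stayed. The 1472 gene-level values of 184 genes under 8 settings and the 364 list-level values all lay within 1 SD of the reported value. Leaving 1 array out cannot move a mean by as much as 1 SD, so those settings could not have come out otherwise. Rescaling the same arrays also changes their mean little, so this count is no test of stability. Counts at the 99th percentile, with the mean above background and among bright protein-coding genes were added after seeing the data. No paired analysis was possible because no groups were compared.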

Other observations

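Tfap2b varied between embryos in the other groups of the series too. It lay at 6.61 to 10.08 over all 20 arrays, with an SD of 0.68 in these 5 embryos, 0.67 in Ts1Cje on plain chow, 1.28 in WT with apigenin and 1.65 in Ts1Cje with apigenin. The genes whose pattern over the 20 arrays was most like it, each array taken relative to its group mean, were ranked by Pearson's r among 14253 genes, after the values were seen and as a description only. Mab21l2, a developmental gene of midbrain and eye, came first at r = 0.96, followed by Ebf3 and Irx1 at 0.92, Sox14 at 0.92, Tfap2d at 0.91, Mab21l1 at 0.90, Klhl1, Otx2 and Pou4f1 at 0.89, Shox2 at 0.88 and Gata3 at 0.87. Leaving out the 2 arrays in which Tfap2b lay farthest from its group mean gave r from 0.73 to 0.93 over the 15 genes most alike. The rest of the 15 were Asic4 at r = 0.84 over the 20 arrays and Ebf2, Tubb2a and Pfn4 at 0.82. Several of the 15 are transcription factors known from midbrain and diencephalon, while Asic4, Tubb2a and Pfn4 are not transcription factor genes. The arrays share their processing, and no cause of the shared pattern was tested.

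The spread of the most variable and most even genes was also read in the other groups. Of the 20, 12 were in the top 5% of SD in Ts1Cje on plain chow, 12 in WT with apigenin and 15 in Ts1Cje with apigenin. Of the 10 most even genes, 9, 10 and 10 lay below the median SD of those groups. Both counts rank a gene among genes of all levels, not among genes of like level. The 10 even genes had means from 8.49 to 12.47. In the 5 embryos described here the median SD was 0.15 in the dimmest of 10 level groups and 0.066 in the brightest. A bright gene thus tends to a low SD rank and a dim gene to a high one, and the part of level in these counts was not tested. The median SD above background was 0.089 in the 5 embryos described here and 0.076, 0.075 and 0.069 in those groups.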
